A study of Caenorhabditis elegans with 2 samples.

Results

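UNC-130 peaks at divergent promoters are peaks at places where a gene on the plus strand and a gene on the minus strand of the genome begin close to each other. A peak was counted as divergent when its summit, the base with the strongest signal, lay within 500 bp of the 5′ end of at least 1 protein-coding gene on each strand. In the authors' optimal list 417 peaks met this rule, or 15.8% of the list (95% Wilson interval 14.5 to 17.3). Of the other peaks of the list, 956 lay within 500 bp of a 5′ end on 1 strand only and are called one-direction promoter peaks, and 1258 lay outside promoters. The rule uses positions alone and does not draw on the signal, the agreement of the replicates or the sequence at the summits. These can still vary with position.

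The data came from chromatin immunoprecipitation and sequencing (ChIP-seq) of a fusion of UNC-130 with enhanced green fluorescent protein (eGFP). Whole L1 larvae of Caenorhabditis elegans strain OP77, males and females pooled and of unknown age, made up the single group. All animals carried unc-119(ed3) on chromosome III and the transgene insertion wgIs77. The labels give 2 biological replicates and no treatment, and they name unc-130 as the antibody's target while describing the experiment as directed at the fusion, so whether untagged protein was also precipitated cannot be told apart. Control libraries were not analysed here, and with 1 group no contrast between conditions can be made. Because whole animals were used, the cells that gave a peak are not known, and peak lists hold no expression values with which to check the labelled stage. Peaks carry the authors' signal value, used here only as a rank within 1 list (rank 1 is the highest). The files hold no read counts, and depth is therefore unknown. All intervals below count peaks, promoters or genes and leave out every error but that of counting. Peaks are not replicates of a condition.

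UNC-130 is a transcription factor of the FoxD class of forkhead proteins, which bind DNA through a winged helix and prefer sites of the type TGTTTAC. Genetics in the worm ties it to the migration of axons and cells along the dorsoventral axis and to the identity of sensory neurons and glia. In a divergent promoter the genes are transcribed away from each other from opposite edges of a shared stretch of DNA, so a protein bound there cannot be given to 1 of the genes from its position alone. Many worm transcripts are trans-spliced, and an annotated 5′ end can lie downstream of the base where transcription starts.

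Sequences at the summit are shown here for 9 of the highest peaks, each from 50 bp left of the summit to 50 bp right of it, read 5′ to 3′ on the plus strand of the RefSeq genome of the WBcel235 assembly (ce11). They were taken in order of rank among members whose window holds no annotated exon, but not from every chromosome. Some members of higher rank are therefore not shown. The first 6 hold the forkhead motif TGTTTRC (R is A or G), in capitals, which appears as GCAAACA or GTAAACA where it is read from the minus strand. They are shown because the motif lies close to the summit in each.

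rpl-15/K11H12.8, chrIV:654886-654986, plus strand: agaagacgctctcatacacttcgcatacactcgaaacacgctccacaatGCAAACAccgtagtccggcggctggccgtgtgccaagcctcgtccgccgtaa
mrps-17/txdc-9, chrIII:6431889-6431989, plus strand: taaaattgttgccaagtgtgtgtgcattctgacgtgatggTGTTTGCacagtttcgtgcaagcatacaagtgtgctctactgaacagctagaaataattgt
C17H12.2/vha-8, chrIV:6790565-6790665, plus strand: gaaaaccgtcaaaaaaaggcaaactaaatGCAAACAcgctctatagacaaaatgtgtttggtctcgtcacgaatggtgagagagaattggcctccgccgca
Y50D4A.4/wrb-1, chrV:1196142-1196242, plus strand: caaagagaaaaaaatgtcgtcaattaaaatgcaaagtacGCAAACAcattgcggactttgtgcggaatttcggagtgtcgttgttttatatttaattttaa
F57C2.5/spat-1, chrII:14528533-14528633, plus strand: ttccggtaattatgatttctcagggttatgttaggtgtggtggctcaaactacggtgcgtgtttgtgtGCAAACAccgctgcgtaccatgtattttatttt
F31D4.2/fkb-6, chrV:20845644-20845744, plus strand: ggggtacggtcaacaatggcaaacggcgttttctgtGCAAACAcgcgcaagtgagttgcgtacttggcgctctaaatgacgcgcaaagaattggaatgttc

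The next 3 are the highest without TGTTTRC among the members from which the sequences were taken. They are shown because they rank above all motif-bearing members, and nothing is in capitals.

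ska-3/rps-12, chrIII:5679074-5679174, plus strand: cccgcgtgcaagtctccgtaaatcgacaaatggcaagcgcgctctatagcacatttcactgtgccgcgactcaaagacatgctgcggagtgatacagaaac
rpl-20/Y17G9B.5, chrIV:4750031-4750131, plus strand: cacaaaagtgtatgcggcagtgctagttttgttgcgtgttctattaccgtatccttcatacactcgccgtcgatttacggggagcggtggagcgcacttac
mig-5/cct-1, chrII:8185148-8185248, plus strand: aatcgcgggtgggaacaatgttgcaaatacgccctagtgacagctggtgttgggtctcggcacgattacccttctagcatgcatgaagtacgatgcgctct

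In 8 of these windows the sequence lies between the 5′ ends of the pair. In the window of Y50D4A.4/wrb-1 it lies inside wrb-1, in an intron, and the summit is 120 bp downstream of the start of wrb-1 and 65 bp upstream of that of Y50D4A.4. Pairs are written here with the minus-strand gene first.

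The highest peaks at divergent promoters stood mostly beside genes of the translation machinery. The highest, at ska-3/rps-12 (chrIII:5679068-5679173), had rank 2 in the optimal list, 4 in replicate 1 and 1 in replicate 2. Its summit lay 119 bp from ska-3, which encodes a kinetochore-associated protein, and 174 bp from rps-12, which encodes a protein of the small ribosomal subunit. The peak of rpl-20/Y17G9B.5 (chrIV:4750037-4750126) had rank 4, with ranks of 11 in replicate 1 and 8 in replicate 2. It lay 303 bp from the large-subunit gene rpl-20 and 159 bp from Y17G9B.5. Both replicates thus placed these summits among their 11 highest candidates.

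The peak of rps-19/hsr-9 (chrI:9626034-9626099) had ranks of 21 in replicate 1 and 9 in replicate 2. That of rpl-12/lin-54 (chrIV:13240552-13240801), whose lin-54 encodes a DNA-binding subunit of the DREAM complex, had ranks of 12 in replicate 1 and 28 in replicate 2. This summit lay 26 bp from rpl-12 and 367 bp from lin-54, so it sat at 1 edge of the pair. The peak of mig-5/cct-1 (chrII:8185146-8185207) had ranks of 5 in replicate 1 and 34 in replicate 2, between a Dishevelled gene of Wnt signalling (mig-5) and a gene for a subunit of the cytosolic chaperonin (cct-1). The peak of rpl-15/K11H12.8 (chrIV:654811-655060) ranked 9 in replicate 1 and 6 in replicate 2, and is the highest member with TGTTTRC.

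The 12 highest members were completed by rps-20/ekl-4, gpap-1/scpr-1, F01G4.6/pfd-1, mcrs-1/atp-1, rps-15/F36A2.9 and ndk-1/F25H2.6, with optimal ranks from 11 to 28. Among their genes, pfd-1 encodes a prefoldin subunit, atp-1 a subunit of the mitochondrial ATP synthase and ndk-1 a nucleoside diphosphate kinase. A cytoplasmic ribosomal protein gene stood at 7 of the 12, against 35 of all 417 members and 26 of the 956 one-direction promoter peaks. Of the 100 highest optimal peaks, 35 were divergent, 45 were one-direction promoter peaks and 20 lay outside promoters.

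Of the 417 members, 407 were head to head, with the 5′ end of the minus-strand gene to the left of that of the plus-strand gene, and in 10 the 5′ ends were crossed. The summit lay between both 5′ ends in 382 members (91.6%). In head-to-head pairs the distance between the 5′ ends, the gap, ranged from 12 to 901 bp with a median of 379 bp (quartiles 265.5 and 522). The median distance of the summit was 60 bp from the midpoint of the gap (quartiles 28.5 and 104.5), and 169 of the 407 summits (41.5%) lay within 50 bp of it. The rule bears on this position, since in wide gaps only the middle stretch can meet it, and the distances are given as a description. The plus-strand 5′ end was the nearer in 219 members, the minus-strand end in 196, and both were equally far in 2. The nearer 5′ end had a median distance of 123 bp (quartiles 60 and 185) and the farther one of 262 bp. In 408 members the 500 bp held exactly 1 gene on each strand.

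**Figure D1:**
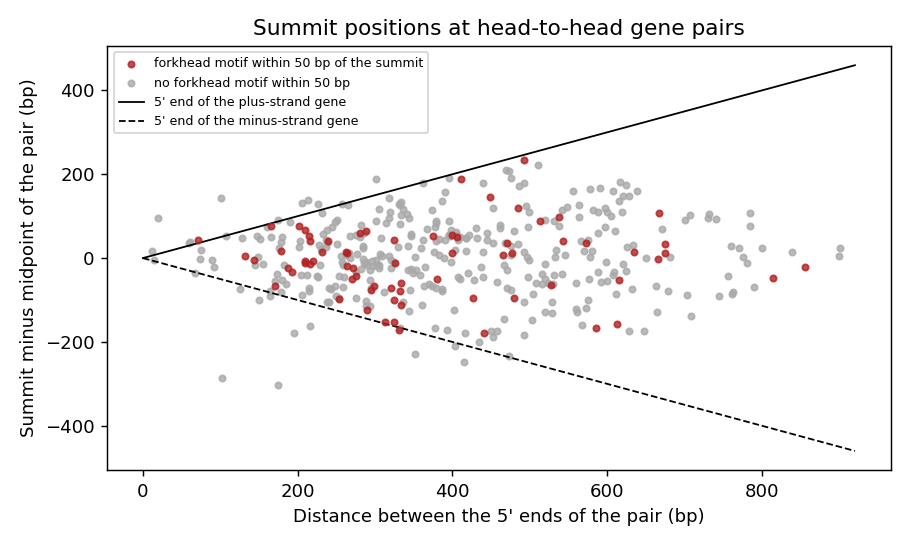
Position of the summit, in bp from the midpoint of the pair, against the distance between the 5′ ends in bp, for the 407 head-to-head members. Each point is a peak, coloured by whether TGTTTRC lies within 50 bp of its summit, and the lines mark the 5′ ends of both genes. Most points lie inside the lines, with a median distance of 60 bp from the midpoint.

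The replicates placed these summits alike. Using the summit of the overlapping peak of replicate 1 in place of the pooled one, 410 of 416 matched members met the rule again, with a median shift of 5 bp. With replicate 2 it was 399 of 405, with a median shift of 8 bp. Between the replicates themselves the summits differed by a median of 12 bp at divergent promoters, 17 bp at one-direction promoters and 33 bp outside promoters. The members nearest to the limit were evl-14/dcn-1, whose farther 5′ end was 499 bp away (rank 1050), and szy-20/C18E9.5 at 498 bp (rank 2182). Just outside it were Y39A1A.22/mrpl-12 at 503 bp (rank 706) and ifet-1/rps-1 at 510 bp (rank 16).

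Divergent promoters held more peaks per length of sequence than other promoters. The stretches of the genome where a summit would meet the rule summed to 0.944 Mb (0.942% of the genome) and held 442 peaks per Mb. Sequence within 500 bp of 5′ ends on 1 strand only summed to 17.9 Mb and held 53.5 per Mb, and the rest of the genome held 15.4 per Mb. The density at divergent promoters was therefore 8.26 times that at one-direction promoters (95% interval from the counts of peaks 7.36 to 9.27). With the distance set to 1000 bp in place of 500 bp the ratio was 5.02. Outside protein-coding genes, a comparison added after the data were seen, the ratio was 7.03.

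The share of divergent summits was highest at the top of each list of candidates. In the pooled list, which holds peaks and background before thresholding, 24.4% of the summits with ranks 1 to 500 were divergent (interval 20.8 to 28.4). The share was 22.4% for ranks 501 to 1000, 12.6% for ranks 1001 to 2000, 6.07% for ranks 2001 to 5000 and 0.870% for ranks 20001 to 30000, with an interval of 0.706 to 1.07 that includes the 0.942% of the genome in these stretches. In replicate 1 the share was 27.8% for ranks 1 to 500, and in replicate 2 it was 18.2% (intervals 24.1 to 31.9 and 15.1 to 21.8). Replicate 1 thus had more divergent peaks among its highest candidates than replicate 2, and in both the share was near 1% at the foot of the list. The one-direction share in the pooled list was 45.2% for ranks 1 to 500 and 19.6% for ranks 20001 to 30000.

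**Figure D2:**
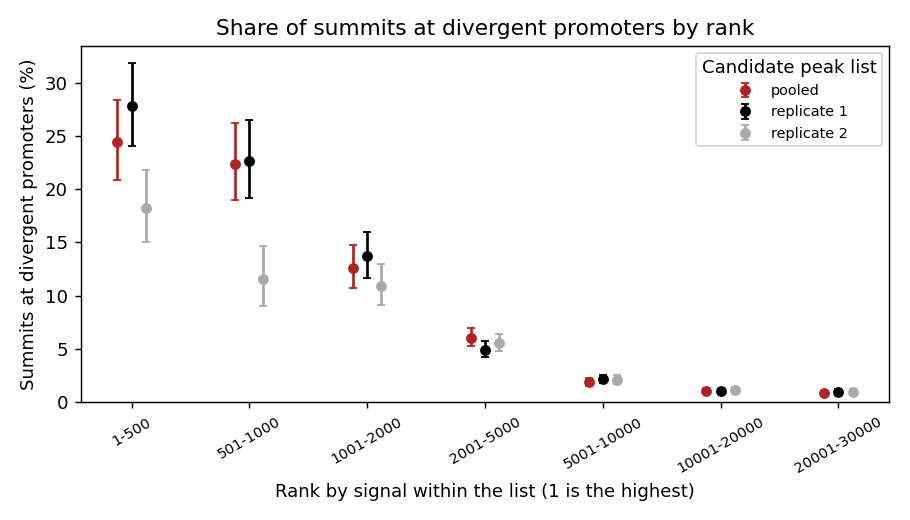
Share of summits at divergent promoters (percent) by rank within the pooled list and the list of each replicate, with 95% Wilson intervals as bars. In the pooled list the share is 24.4% for ranks 1 to 500 and 0.870% for ranks 20001 to 30000. The list of replicate 2 ends at rank 25234.

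Most divergent promoters held no optimal peak. The genome has 1851 of these stretches, 1745 of them head to head, and 415 held a peak (22.4%, interval 20.6 to 24.4). This 22.4% is the background against which the shares below stand. All but 2 of the 415 held 1 peak, and mtx-1/dnj-12 and Y17G7B.20/ash-2 held 2 each. The share depended on the gap. It was 18.5% (46 of 248) for gaps of 1 to 200 bp, 37.6% (178 of 474, interval 33.3 to 42.0) for 201 to 400 bp, 31.2% (125 of 401) for 401 to 600 bp and 14.8% (52 of 351) for 601 to 800 bp. It was 1.85% (5 of 271, interval 0.791 to 4.25) for 801 to 1000 bp, where the stretch that meets the rule is shortest by construction. Per length of that stretch the order differed, with 214, 532, 630, 483 and 176 peaks per Mb from the narrowest to the widest gaps. Pairs with overlapping or crossed 5′ ends had a peak in 9 of 106 cases (8.49%, interval 4.53 to 15.4).

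**Figure D3:**
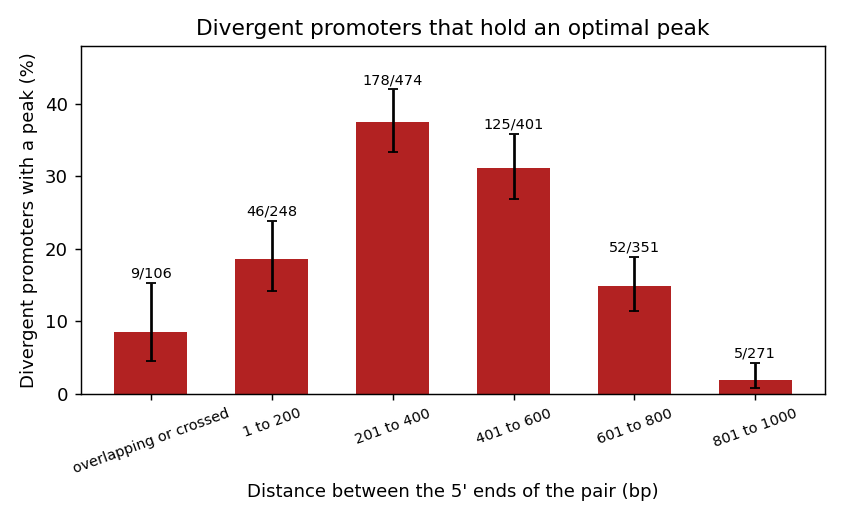
Share of divergent promoters that hold an optimal peak (percent) by the distance between the 5′ ends of the pair in bp, with 95% Wilson intervals and, above each bar, the number with a peak over the number of promoters. Gaps of 201 to 400 bp have the highest share, 37.6%, and gaps of 801 to 1000 bp the lowest, 1.85%.

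The chromosomes differed in the share of divergent promoters with a peak. It was 29.9% on chromosome I (102 of 341, interval 25.3 to 35.0) and 30.3% on chromosome III (94 of 310, 25.5 to 35.7). It was 16.2% on chromosome V (73 of 450, 13.1 to 19.9), 17.7% on II (60 of 339) and 21.4% on IV (69 of 323). On the X chromosome 17 of 88 divergent promoters had a peak (19.3%, 12.4 to 28.8), an interval that includes the genome-wide 22.4%. The X chromosome holds few such promoters, and members made up only 3.38% of its 503 optimal peaks, against 22.4% of the 459 on chromosome I.

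Read by gene, 839 of the 3738 protein-coding genes at divergent promoters (22.4%) had a divergent peak. Of the 16235 other protein-coding genes, 859 (5.29%, interval 4.96 to 5.65) had a one-direction promoter peak. The share differed widely between groups of genes, and in each group below it stands beside the 22.4% for all genes at divergent promoters. The groups were chosen with earlier results of these data known. Their shares and intervals, also where they lie above or below the background, are therefore a description and not a test. A pair shares its peak, so a gene's count includes peaks that may lie closer to its partner.

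Among the groups with more than 1 gene at a divergent promoter, genes of the cytoplasmic ribosome were most often beside a peak. Of 78 such genes, 47 (60.3%, against 18.7% of all protein-coding genes) lay at a divergent promoter, and 38 of the 47 had a divergent peak (80.9%, interval 67.5 to 89.6). Of the 31 others, 23 (74.2%, 56.8 to 86.3) had a one-direction peak, so within this group the intervals for the promoter types overlap. The 38 genes shared 35 peaks with a median rank of 168, and 21 of the 100 highest members were among them. The summit was nearer to the partner's 5′ end for 26 of the 38 genes, with a median distance of 302.5 bp to the ribosomal protein gene and 211.5 bp to the partner. Ribosomal protein genes stood on both strands at rps-14/rpl-36, rps-10/rpl-24.1 (rank 117) and rpl-39/rps-30 (rank 411). The percentile of signal, counted within each replicate among the 2566 optimal peaks found in both (100 is the highest), was 95.6 in replicate 1 and 94.7 in replicate 2 at rps-14/rpl-36. At rpl-39/rps-30 it was 75 in replicate 1 and 88.7 in replicate 2. The lowest of the 35 peaks, at rps-18 and sec-61.A, had rank 2586 and lay 455 bp from rps-18 and 40 bp from sec-61.A, which encodes a subunit of the protein channel of the endoplasmic reticulum.

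Among other genes of translation, the share of mitochondrial ribosomal protein genes had an interval above the background. Of 28 mitochondrial ribosomal protein genes at divergent promoters, 16 had a peak (57.1%, interval 39.1 to 73.5). Of the 42 others, 7 had a one-direction peak (16.7%), where all other genes had 5.29%. The highest were at mrps-17, mrps-7, mrpl-49 and mrps-18B, with ranks of 70, 188, 406 and 658. Of 29 translation factor and tRNA synthetase genes, 9 had one (31%, 17.3 to 49.2), an interval that includes the background, and of the 34 others 10 had a one-direction peak (29.4%). The elongation factor genes eef-1G (rank 34, partner ctf-4), eef-1B.1 (rank 65, partner aco-2) and eef-2 (rank 73, partner clsp-1) were highest there, followed by the tRNA synthetase gene ears-2 (rank 84). The summits lay 39, 6, 6 and 25 bp from these 4 genes.

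Genes of protein breakdown, energy metabolism and transcription also had shares whose intervals lay above the background. Of 21 proteasome genes at divergent promoters, 12 had a peak (57.1%, interval 36.5 to 75.5), the highest at rpn-3, rpt-2, rpn-5 and pas-4 with ranks of 57, 121, 412 and 421. The partner of rpn-3 is hsp-110, a chaperone gene, and that of rpn-5 is scc-1, which encodes a cohesin subunit. Of 20 respiratory chain genes, 13 had one (65%, 43.3 to 81.9), led by atp-1 (rank 23), cox-14 (116), nuo-1 (168) and atp-3 (280). Of 20 genes of RNA polymerase II, Mediator and related complexes, 12 had one (60%, 38.7 to 78.1), led by taf-11.3 (rank 47), mdt-9 (256), rpb-3 (421) and ints-1 (699). At pas-4/rpb-3 a single peak lay between a proteasome gene and a polymerase gene. Of 12 nuclear pore genes, 6 had one (50%, 25.4 to 74.6), the highest at npp-3, npp-14, npp-16 and npp-7. At one-direction promoters these groups also had shares above the 5.29% of all other genes. There 5 of 12 proteasome genes had a peak (41.7%), 8 of 19 respiratory chain genes (42.1%), 9 of 39 genes of RNA polymerase II, Mediator and related complexes (23.1%) and 8 of 14 nuclear pore genes (57.1%).

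Chemoreceptor and C-type lectin genes had shares below the background, and the intervals of the other families in this paragraph include it. Of 132 chemoreceptor genes at divergent promoters, 4 had a peak (3.03%, interval 1.18 to 7.53), below the 22.4% of all genes. These were srh-16, sri-5, srh-2 and srr-10, with ranks of 341, 577, 693 and 2288. Of 53 C-type lectin genes none had one, which allows a share of up to 5.66% as 3 counts of 53, or of 6.76% by the upper Wilson limit. Both families were also low among genes not at divergent promoters, of which 5.29% had a one-direction peak. There 1 of 1176 chemoreceptor genes (0.0850%) and 0 of 187 C-type lectin genes had such a peak. Of 19 nuclear hormone receptor genes 2 had one, nhr-47 (rank 717) and nhr-68 (rank 747), or 10.5% (2.94 to 31.4). Of 19 col collagen genes 4 had one (21.1%, 8.51 to 43.3), namely col-38, whose partner is rpl-5, col-3 and col-117, which face each other (rank 870), and col-71. Of 6 ceh homeobox genes 1 had one, ceh-38, at rank 1779.

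Few genes of the pathways in which unc-130 is known from genetics lay at divergent promoters. Of 22 TGF-beta signalling genes and 46 axon guidance genes, 1 each lay at a divergent promoter (4.55% and 2.17%, against 18.7% of all protein-coding genes), and it was the same gene, unc-40, which encodes the netrin receptor of the DCC family. The peak of unc-40/npp-7 (chrI:5691673-5691922) had rank 719 and percentiles of 72.0 in replicate 1 and 46.7 in replicate 2, or 59.3 ± 17.9 (SD, n = 2). Its summit lay 466 bp from npp-7, a nuclear pore gene, and 295 bp from unc-40. Divergent promoters held 1 of 15 forkhead genes (6.67%), 1 of 39 body wall muscle genes (2.56%) and 3 of 18 glial genes (16.7%, near the 18.7% of all genes). None of these 5 had a divergent peak, and so few genes set no useful limit: the upper Wilson limit of the share is 79.3% for 1 gene and 56.1% for 3.

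The forkhead motif TGTTTRC, mainly in its form TGTTTGC, lay at the summits of members more often than beside them. TGTTTRC, searched on both strands within 50 bp of the summit, was found in 71 of 417 members (17%, interval 13.7 to 20.9), where all optimal peaks together had 10.6%. In windows of the same length centred 100 to 400 bp to either side of the members' summits the share was between 1.92% and 4.32%. At the midpoints of the head-to-head divergent promoters without an optimal peak it was 6.65% (89 of 1339). The difference of 10.4 points between members and these midpoints had a 95% Newcombe interval of 6.77 to 14.5. That comparison sets summits against midpoints. At the midpoints of the head-to-head divergent promoters with an optimal peak the share was 10.8% (44 of 406), which is 4.19 points above that at the midpoints without one (1.15 to 7.80). These windows differ in base composition, with G and C making up 46.9% ± 5.95 of the bases at the members' summits (SD over windows). They made up 37.5% ± 10.1 at the midpoints with an optimal peak and 33.8% ± 8.58 at those without one. Against peaks outside promoters, which had 5.72% and a G and C content of 47.2% ± 6.37, the difference was 11.3 points (7.71 to 15.4).

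Between members and one-direction promoter peaks the share with the motif did not differ beyond its interval. It was found in 137 of 956 of these (14.3%, interval 12.3 to 16.7), a difference of 2.70 points whose interval, -1.37 to 7.12, includes 0. The form TGTTTGC made up most occurrences, at 15.3% of members and 11.9% of one-direction promoter peaks (difference 3.42 points, -0.417 to 7.65). In the list of replicate 2 alone that difference was 4.49 points (0.607 to 8.98), and in replicate 1 alone it was 3.50 points (-0.276 to 7.64). TGTTTAC, the form given as typical of forkhead proteins above, was found at 1.92% of members and 2.62% of one-direction promoter peaks. It was found at 2.07% of peaks outside promoters and at 2.61% of midpoints of divergent promoters without a peak. The intervals of both differences from members include 0 (-1.48 to 1.79 and -2.07 to 1.27 points). For TGTTTGC the same differences were 11.5 points (8.17 to 15.4) and 11.3 points (7.95 to 15.2).

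Within the members the motif sat close to the summit. The 71 peaks held 76 occurrences, 67 of the form with G and 9 of the form with A, at a median distance of 12 bp from the summit, and 54 (71.1%) lay within 20 bp. The core was read on the plus strand in 31 cases and on the minus strand in 45. The base just before the core was G in 61 of the 76, as in the sequences of mrps-17/txdc-9 and, on the other strand, rpl-15/K11H12.8 shown above. The third base after the core was A in 51 of the 76. The highest members with TGTTTRC after rpl-15/K11H12.8 were eef-1B.1/aco-2 (rank 65), mrps-17/txdc-9 (70), C17H12.2/vha-8 (79), Y50D4A.4/wrb-1 (127), let-630/hcp-6 (142), F57C2.5/spat-1 (193) and abtm-1/eif-3.I (234). Of their genes, aco-2 encodes the mitochondrial aconitase, vha-8 a subunit of the vacuolar ATPase and hcp-6 a condensin subunit.

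The share with the motif was no higher among the highest members, and it was lowest beside ribosomal protein genes. It lay in 15.4% of the 286 members with ranks 1 to 1315 (interval 11.7 to 20) and in 20.6% of the 131 others (14.6 to 28.3), and these intervals overlap. Among the 35 members beside a cytoplasmic ribosomal protein gene, 1 held it (2.86%, 0.506 to 14.5), against 18.3% of the 382 others (14.8 to 22.5). That 1 was rpl-15/K11H12.8.

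For 3 other motifs the share at members was lower than at one-direction promoter peaks by an interval that excluded 0. GAGAGA was found at 13.7% of members and 21.7% of one-direction promoter peaks, a difference of -7.98 points (-12.0 to -3.58). The difference was -7.44 points in the list of replicate 1 and -10.5 points in that of replicate 2. The E-box CACGTG, a site of basic helix-loop-helix proteins, was found at 2.88% of members and 6.49% of one-direction promoter peaks (difference -3.61 points, -5.74 to -1.10). The GATA-factor site TGATAA was found at 1.68% of members and 4.60% of one-direction promoter peaks (difference -2.92 points, -4.67 to -0.830). The interval of the difference included 0 for CCAAT, a site of NF-Y proteins, and for the TATA-box motif TATAAA. It also included 0 for the GC box GGGCGG, for an E2F-like motif of 8 letters and for a run of 8 T bases. At the midpoints of divergent promoters without a peak, GAGAGA was found in 7.54%, CACGTG in 2.09% and TGATAA in 11.1%. These are matches of letters and do not show which protein binds.

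**Figure D4:**
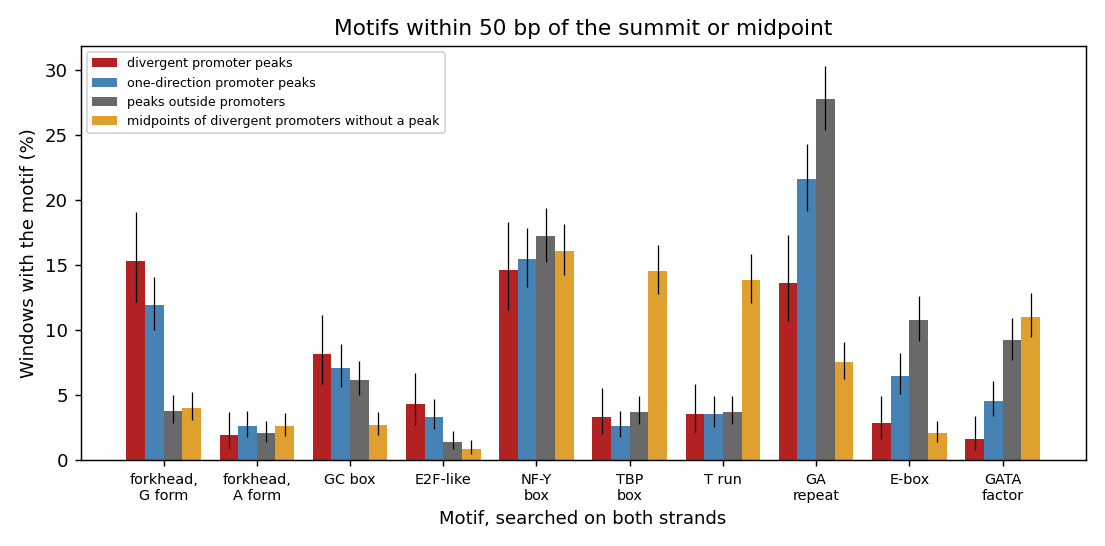
Share of windows (percent) that hold each motif within 50 bp of the summit, or of the midpoint for divergent promoters without a peak, with 95% Wilson intervals as lines. The bars are, from left to right in each group, divergent promoter peaks, one-direction promoter peaks, peaks outside promoters and midpoints without a peak. The G form of the forkhead motif is at 15.3% of divergent and 11.9% of one-direction promoter peaks, and the GA repeat at 13.7% and 21.7%.

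Members ranked higher than one-direction promoter peaks within the optimal list. The median rank was 874 for divergent peaks, 1185 for one-direction promoter peaks and 1559 for peaks outside promoters. By median percentile of signal, given below, this order held in replicate 1 but not in replicate 2. Ranks 1 to 1315 held 286 of 417 members (68.6%, interval 64.0 to 72.9) and 527 of 956 one-direction promoter peaks (55.1%, 52 to 58.3), a difference of 13.5 points (Newcombe interval 7.89 to 18.8). The direction was the same in each of 5 ranges of distance from the nearer 5′ end, with 64.1% against 49.0% up to 50 bp and 66.7% against 51.5% at 301 to 500 bp. With the rule's distance set to 250 bp the difference was 6.83 points and its interval, -0.960 to 14.1, included 0. In replicate 2's own list, without replicate 1, it was 7.92 points (1.56 to 14.1).

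The replicates ranked the members unequally. The median percentile of the members was 70.9 in replicate 1 and 49.2 in replicate 2, and for one-direction promoter peaks it was 56.9 and 47.8. For peaks outside promoters it was 38.1 in replicate 1 and 51.6 in replicate 2. In replicate 2 their median thus lay above that of the members. Of 404 members found in both replicates, 276 had the higher percentile in replicate 1 and 128 in replicate 2. The median gap between the 2 percentiles was 23.1 points, and in 70 members it was over 50 points. Spearman's rho between the replicates, as a description over peaks that share their libraries, was 0.473 for members, 0.306 for one-direction promoter peaks and 0.153 outside promoters.

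In all, 281 of 417 members (67.4%, interval 62.7 to 71.7) overlapped a peak that stood, in both replicates, among as many of the highest as the optimal list has peaks, where all optimal peaks had 57.2%. One-direction promoter peaks had 58.2% (55.0 to 61.2), a difference of 9.23 points (3.65 to 14.6). Among ranks 1 to 1315 alone the difference was -0.104 points (-5.39 to 4.73), so it was not seen between peaks of the upper ranks, and with the rule's distance set to 250 bp it was 3.14 points (-4.71 to 10.6). The optimal list was derived from these same lists, so this share is not an independent measure of agreement.

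In 22 of the 404 members found in both replicates (5.45%, interval 3.62 to 8.11) the percentile was at least 95 in both. This held for 25 of 934 one-direction promoter peaks (2.68%, 1.82 to 3.92), 12 of 1228 peaks outside promoters (0.977%) and 59 of all 2566 (2.30%). The separate intervals of divergent and one-direction promoter peaks overlap. Overlap alone does not settle whether these shares differ, and an interval of their difference was not computed. These 22 comprised the 12 highest members and 10 others. The others were lin-7/elof-1, pabp-2/C17E4.6, ctf-4/eef-1G, dnsn-1/C24H12.4, ify-1/rpl-22, polh-1/rps-22, hsp-110/rpn-3, rps-23/dpm-3, drr-2/set-16 and dad-1/tre-1. Their mean percentiles lay between 96.6 and 98.5. Among their genes, pabp-2 encodes a nuclear poly(A)-binding protein, ify-1 the securin, polh-1 a DNA polymerase of translesion synthesis, set-16 a histone H3 lysine 4 methyltransferase and dad-1 a subunit of the oligosaccharyltransferase.

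Some members had unlike percentiles in the replicates. At prp-9/mrps-18B (chrII:8525411-8525660, rank 658), beside a splicing factor gene, the percentile was 88.1 in replicate 1 and 2.59 in replicate 2. At R05D3.8/rfp-1 it was 89.6 and 5.40, and at copa-1/gst-43 it was 95.2 and 11.3, again with replicate 1 higher. In the other direction, sqv-3/vha-1 (chrIII:9780684-9780933, rank 711) had 12.4 in replicate 1 and 90 in replicate 2. At icl-1/srh-2, beside the glyoxylate cycle gene icl-1, the percentiles were 20.4 and 92.2, and at rpb-7/Y54E10BR.2 they were 13.9 and 84.2, with replicate 2 higher. A further 12 members overlapped no candidate of replicate 2, and 1 overlapped none of replicate 1, so they have no percentile here. The highest of the 12 by rank in replicate 1, chosen after its values were seen, was smn-1/klp-16, with rank 637 in the optimal list and 261 in replicate 1. The single member without a candidate in replicate 1, his-35/his-41, had rank 771 in replicate 2. Histone genes have near-identical copies, and whether that bears on this peak was not tested. With 2 replicates, which of them is closer to the typical animal cannot be told apart.

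**Figure D5:**
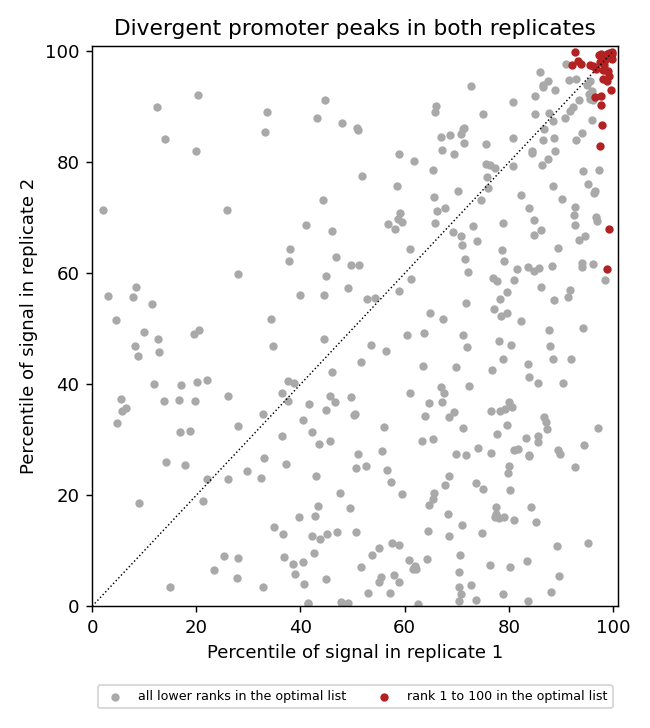
Percentile of signal in replicate 2 against that in replicate 1 for the 404 members found in both, where 100 is the highest and the dotted line marks equal percentiles. Red points have optimal ranks of 1 to 100, and grey points lower ranks. The red points lie in the upper right corner apart from a few with a lower percentile in replicate 2, and 276 of the 404 points have the higher percentile in replicate 1.

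Few members touched other features. A gene for a tRNA, snoRNA or other short non-coding RNA lay no farther than 100 bp from the summit in only 4 of the 417, against 34 of 956 one-direction promoter peaks and 148 of 1258 outside promoters. The summit lay inside a protein-coding gene in 35 members (8.39%), 164 one-direction promoter peaks (17.2%) and 541 peaks outside promoters (43.0%). These positions are not independent of the rule, which itself fixes where gene starts lie. Of the peaks narrower than the usual 250 bp, 8 were members and 5 were one-direction promoter peaks.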

How the data were processed

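The analysis used peak lists on ce11 in narrowPeak layout. There was 1 for each of 2 biological replicates, 1 for both pooled, and the optimal list of 2631 pooled peaks kept by the authors' threshold on the irreproducible discovery rate (IDR), per the deposited notes. Of the aligner, peak caller, versions, IDR threshold and depth, none is given in the sources used here. The pooled list and that of replicate 1 hold 30000 peaks each, which may be a set limit, and that of replicate 2 holds 25234. The deposited signal of each peak is the authors' own and its scale is not stated, so it was used only as a rank within 1 list. No widths or signals were rescaled. The lists on ce10 were not used.

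Summits were placed on gene models of Ensembl release 115 (WBcel235, the same assembly as ce11, 19973 protein-coding genes on 6 chromosomes). The 5′ end of a gene model was its first base on its strand. Bases came from the RefSeq genome of that assembly. A peak was matched to a replicate by an overlap of at least 1 bp, taking the one of highest signal, and its percentile was taken among the 2566 optimal peaks matched in both. Shares carry 95% Wilson intervals and differences 95% Newcombe intervals, called where they exclude 0. No p-value was computed, since there is 1 group. The scripts (Python 3.11.15, pandas 2.3.3, numpy 2.4.6) were tested on simulated data. Motifs were read on both strands in windows of 101 bp and included the E2F-like TTTSGCGC (S is C or G). Named are both genes of the 12 highest members, the 8 highest with TGTTTRC, the members at percentile 95 or above in both replicates, the 3 with the largest gap between replicates in each direction and up to 4 genes of each of 17 gene lists. The members, motifs and gene lists were chosen with earlier results of these data known. Alternatives tried were distances of 250 and 1000 bp, 5′ ends of transcripts, head-to-head pairs, peak midpoints, ranks 1 to 1315, each replicate alone, other motif windows and overlaps, and sets without some peaks.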

Additional observations from a re-analysis of the deposited data

Results flagged for a closer look

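Some divergent promoters held candidate summits outside the optimal list. Of the 1436 divergent promoters with no optimal peak, 158 (11.0%) held a pooled candidate summit below the threshold whose peak overlapped a candidate of both replicates. These candidates are given here because they lie outside the list to which the members belong, although they enter the shares by rank above. Below the threshold, 415 of 27369 pooled candidates (1.52%) were at divergent promoters, and 168 of the 415 overlapped a candidate of both replicates (40.5%, interval 35.9 to 45.3). Of all 27369 candidates below the threshold 24.6% did so, and of the 5786 at one-direction promoters 27.2% (26 to 28.3). These groups were not matched for rank. Divergent summits made up 1.88% of pooled ranks 5001 to 10000 and 0.870% of ranks 20001 to 30000. The candidate lists also hold background, no control libraries were analysed here, and whether these candidates differ from background was not tested.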

How the results depend on the processing

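Of 52 alternatives over 5 results, 40 left the result on the same side of its limit or within its interval. The share of optimal peaks at divergent promoters, 15.8%, was 7.15% with a distance of 250 bp, 21.8% with 1000 bp and 21.7% among ranks 1 to 1315, and it ranged from 12.2% to 16.5% when 1 replicate was left out. The density ratio, 8.26, was 10.3 with 250 bp, 5.02 with 1000 bp, 10.3 among ranks 1 to 1315 and 7.03 outside protein-coding genes (added after the data were seen), and it ranged from 7.02 to 8.31 without 1 replicate. A distance of 250 bp moves pairs with wide gaps into the one-direction class by construction. With it, the difference in the share of ranks 1 to 1315 was 6.83 points, with an interval that includes 0, and the difference in the share found among the highest of both replicates was 3.14 points. The second of these was -0.104 points among ranks 1 to 1315, and the cause was not tested. The difference in the TGTTTRC share was not called in the main comparison or in any of 13 alternatives (0.584 to 5.34 points). No paired analysis was possible because there is 1 group. The files give no depth, so intervals cover the counting of peaks and not of reads, and 2 replicates give no measure of how far a share would vary between further samples.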

Other observations

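A survey of all words of 7 bases at the summits of members found TGTTTGC, the G form of the motif TGTTTRC, in first place. Each of 8108 words was joined with its reverse complement and counted once per window within 50 bp of the summit and in windows centred 150 bp to either side. The words below were picked by their values, so the shares are a description with no test. GCAAACA, the reverse complement of TGTTTGC, had the largest difference, at 15.3% of members' summits and 0.600% of the windows beside them. It also had the largest difference among divergent peaks of replicate 1 alone and the third largest in replicate 2 alone.

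Some leading words overlap GCAAACA by their letters, among them CAAACAC, which was found at 14.6% of members and 12.2% of one-direction promoter peaks. Those that follow here do not overlap it. CGAGACC was found at 12.2% of members and 7.32% of one-direction promoter peaks, and GAGACCC, which overlaps it, at 12.2% and 5.23%. Both lie in the sequence at mig-5/cct-1 printed above, on its other strand. ACCGTAC was found at 11.3% of members, 3.45% of one-direction promoter peaks and 0.636% of peaks outside promoters. In the list of replicate 1 alone its shares were 9.89% of divergent and 3.43% of one-direction promoter peaks, and in replicate 2 alone 11.5% and 2.42%. CGCTCCA was found at 11.5% of members and 6.90% of one-direction promoter peaks, and lies in the sequences at rpl-20/Y17G9B.5 and rpl-15/K11H12.8. Among the 35 members beside a cytoplasmic ribosomal protein gene, 10 held CGAGACC (28.6%) and 1 held GCAAACA (2.86%). No protein is assigned to these words here.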
